A study of Mus musculus with 18 samples.

Results

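miR-423 is a mouse microRNA hairpin from which both arms, mmu-miR-423-5p and mmu-miR-423-3p, are read. Both arms were taken by their names in the table of mature microRNAs, where each has 1 row, and they are 2 of 1907 mature microRNAs listed. They were chosen from values of these same libraries, namely their reads and distinct sequences over all groups, the change of their input level by day of knockdown and their ratio of IP to input. Every value of the arms below is built from these, and is given as a description without a test. NIH/3T3 is an established mouse fibroblast line. The 6 groups of 3 libraries each (replicates A, B and C) were small RNA of unperturbed cells (WT), of cells 3 days after knockdown of Pus1 (KD3) and of cells 6 days after it (KD6), each as total small RNA (input) and after immunoprecipitation with an antibody against pseudouridine (Ψ-IP). How Pus1 was knocked down is not given in the sources used here, and no library measured Pus1 itself. Nothing says whether the replicates were separate cultures, so p-values given for other microRNAs measure the spread between these libraries only.

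A microRNA is cut from a hairpin precursor, and either strand of the resulting duplex can be loaded into an Argonaute protein, which it guides to messenger RNAs through its seed, bases 2 to 8. Pus1 is an enzyme that converts uridine to pseudouridine in tRNA and other RNAs, and the Ψ-IP asks which small RNAs are bound by an antibody against that base. miR-423 is widely expressed, and both of its arms are commonly sequenced from cultured cells.

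The sequences are shown because the arms differ in where their uridines lie, the bases that pseudouridine can replace. In the arms the capitals mark the seed, and in the hairpin they mark the 5p and then the 3p arm (RefSeq, build GRCm38.p6).
mmu-miR-423-5p: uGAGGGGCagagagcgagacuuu
mmu-miR-423-3p: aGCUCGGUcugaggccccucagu
Mir423 hairpin: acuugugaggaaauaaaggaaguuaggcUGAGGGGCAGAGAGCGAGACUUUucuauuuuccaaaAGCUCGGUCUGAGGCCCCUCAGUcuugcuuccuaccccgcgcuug
The hairpin lies at chr11:77078064-77078172 on the minus strand, with the 5p arm at chr11:77078122-77078144 and the 3p arm at chr11:77078086-77078108. In GENCODE M21 it is inside an intron of Nsrp1, a gene for a nuclear speckle splicing protein read from the same strand at chr11:77044292-77078435. It begins 263 bases after the annotated start of Nsrp1-201 and Nsrp1-203, and lies outside Nsrp1-202.

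Each arm is 23 bases long. The 5p arm holds 4 uridines, at positions 1, 21, 22 and 23, so that none is in its seed. The 3p arm holds 5, at positions 4, 8, 10, 19 and 23, of which positions 4 and 8 are in its seed. Of 534 microRNAs tested, 462 were matched by name to a RefSeq sequence, and their median was 6 uridines. A count as low as that of the 5p arm or lower was found in 19.9% of them, and one as low as that of the 3p arm or lower in 37.0%. The 3p arm was richer in G and C, at 65.2% against 56.5% for the 5p arm and a median of 50%. The seed of the 5p arm was shared by 1 other microRNA, miR-6921-5p, which had 4 reads over all libraries and was not tested, and no other sequence shared the seed of the 3p arm.

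The libraries held 3989031 to 15099781 mapped reads, except for replicate A of the KD6 input with 241109, in which the 5p arm had 72.5 and the 3p arm 133.8 estimated reads. The log2 ratios of the level of each arm that use the KD6 input are given with and without it. All 5 fibroblast or mesenchymal markers were read in every input, led by miR-21a-5p, and their summed level ran from 339216 to 528224 over the KD6 inputs, 488063 to 556723 over WT and 519382 to 569136 over KD3 (CPM, counts scaled to a common library size). Epithelial markers summed to at most 3.25 CPM and blood markers to at most 1.43 CPM in any input. Of the neuronal, liver and muscle markers, miR-9-5p (918 to 1413 CPM), miR-122-5p (27.3 to 77.2 CPM) and miR-206-3p (98.8 to 265 CPM) were read in the inputs, while miR-124-3p was at most 0.281 CPM, miR-1a-3p at most 1.33 CPM and miR-133a-3p at 0. The part of these differences in the results below was not tested.

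In the inputs both arms were lower at each later day of knockdown. Levels are CPM scaled by the TMM method, which assumes that most microRNAs do not change. miR-423-5p stood at 1180, 1187 and 1076 CPM in WT input, at 819, 880 and 843 in KD3 input and at 293, 681 and 509 in KD6 input (replicates A, B and C). Every KD3 library lay below every WT library, and every KD6 library below every KD3 library. miR-423-3p stood at 1991, 1990 and 1780 CPM in WT input, at 1495, 1533 and 1322 in KD3 input and at 545, 1103 and 825 in KD6 input, also without overlap between any pair of days. For comparison, all 3 libraries were lower for 28.1% of all 534 microRNAs in KD3 against WT, for 26.8% in KD6 against WT and for 20.2% in KD6 against KD3, and since these contrasts chose the arms nothing is read from that count.

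**Figure D1:**
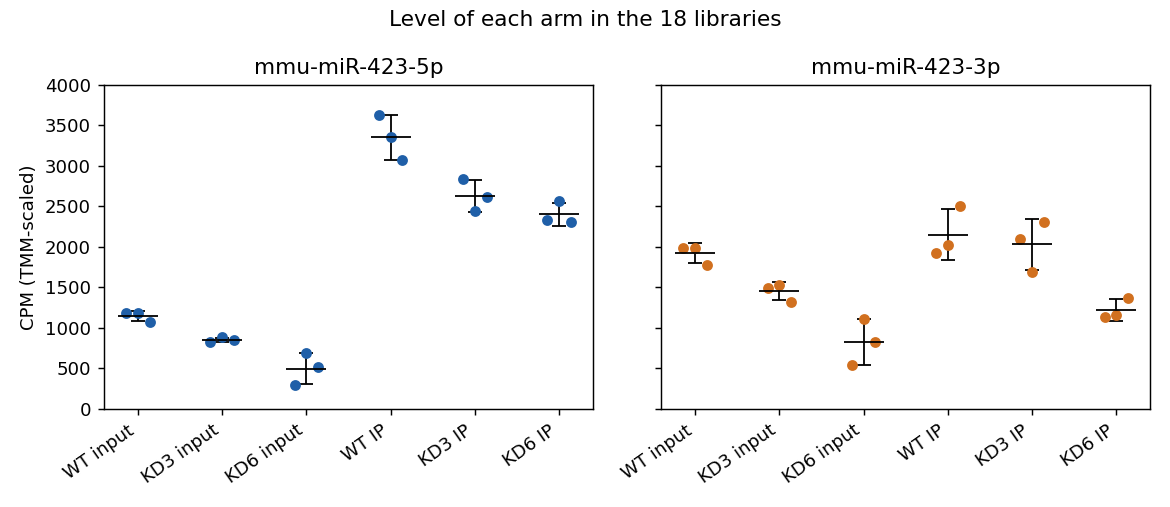
TMM-scaled CPM of each arm (y axis, linear from 0) in the 6 groups (x axis); points are the replicates A, B and C from left to right, horizontal lines the mean and bars the SD (n = 3). The 5p arm has its 9 highest values in the IP libraries, while the IP and input values of the 3p arm overlap in WT.

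On the log2 scale, miR-423-5p changed by −0.44 ± 0.21 (SE) in KD3 against WT and by −1.19 ± 0.21 in KD6 against WT, and miR-423-3p by −0.41 ± 0.21 and −1.21 ± 0.21. From KD3 to KD6 the differences were −0.75 ± 0.21 for the 5p arm and −0.80 ± 0.21 for the 3p arm. The median of all microRNAs was itself −0.25 in KD6 against WT on this scale, so that the arms lay 0.936 and 0.954 below it, with 5.62% and 5.06% of microRNAs lower than they were. In KD3 against WT the median was −0.17, and 23.2% and 26.8% of microRNAs were lower than the 5p and the 3p arm. In KD6 against KD3 it was −0.11, and 12.4% and 10.5% were lower. Without replicate A of the KD6 input the KD6 against WT values were −0.81 ± 0.16 for the 5p arm and −0.86 ± 0.18 for the 3p arm, beside a median of −0.02, and the KD6 against KD3 values were −0.51 ± 0.16 and −0.59 ± 0.18. Omitting each of the 6 libraries of KD6 against WT in turn gave −1.11 to −0.81 and −1.07 to −0.86. Every omission thus gave a smaller fall than the full fit, and not only that of replicate A. For the 3p arm the smallest fall came from omitting KD6 input replicate C. In KD6 against KD3 the ranges were −0.77 to −0.51 and −0.77 to −0.55, and only the 5p range held the value of the full fit. The arms changed by nearly the same amount at each day, and fewer reads of both cannot be told apart from more reads of other microRNAs.

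In the Ψ-IP libraries miR-423-3p was lowest at KD6. The differences between IP libraries follow from the input changes and the IP ratios that chose the arms, so they are no independent result. miR-423-3p stood at 1921, 2026 and 2506 CPM in WT IP, at 2095, 1691 and 2302 in KD3 IP and at 1135, 1151 and 1370 in KD6 IP. All KD6 values lay below all values of WT and KD3, which overlapped each other. Its log2 ratio was −0.82 ± 0.21 (SE) in KD6 against WT and −0.74 ± 0.21 in KD6 against KD3, which are 1.76-fold and 1.66-fold lower levels. In these comparisons 16.1% and 19.9% of microRNAs were lower than it was. In KD3 against WT the log2 ratio was −0.08 ± 0.21.

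miR-423-5p stood at 3626, 3361 and 3073 CPM in WT IP, at 2833, 2437 and 2618 in KD3 IP and at 2330, 2569 and 2310 in KD6 IP. All KD3 and all KD6 values lay below all WT values, and KD3 and KD6 overlapped. The log2 ratio to WT was −0.35 ± 0.21 in KD3 and −0.48 ± 0.21 in KD6, and KD6 differed from KD3 by −0.13 ± 0.21. In these comparisons 25.3%, 25.8% and 42.1% of microRNAs were lower than the 5p arm. Under 28 scalings fitted to these libraries the KD6 against WT ratio ran from −0.63 to −0.42 for the 5p arm and from −0.97 to −0.76 for the 3p arm. In KD6 against KD3 that of the 3p arm ran from −0.86 to −0.54 and that of the 5p arm from −0.25 to 0.060, so that its sign turned. All 28 were forms of TMM. Some fits without TMM factors gave values outside these ranges, as listed further below.

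Over all microRNAs, edgeR's quasi-likelihood test with Benjamini-Hochberg adjustment called 36 lower in KD6 against WT IP, 6.74% of those tested, and 33 higher, 6.18%, and in KD6 against KD3 IP 51 lower, 9.55%, and 38 higher, 7.12%. In KD3 against WT 0% were lower and 2, 0.375%, higher, with 75 at an unadjusted p under 0.05 in edgeR and 34 called in either direction by DESeq2. All 3 libraries were lower for 8.61% of microRNAs in KD3 against WT, 15% in KD6 against WT and 13.5% in KD6 against KD3, and nothing is read from these shares about the arms. The share of mapped reads outside microRNA rows also differed between the IP groups, at 14.8% to 18.6% in WT, 27.9% to 38.2% in KD3 and 23.2% to 30.3% in KD6, and its part in these results was not tested. The IP libraries are a share of the bound RNA, so a lower level cannot be told apart from a higher level of other bound microRNAs.

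**Figure D2:**
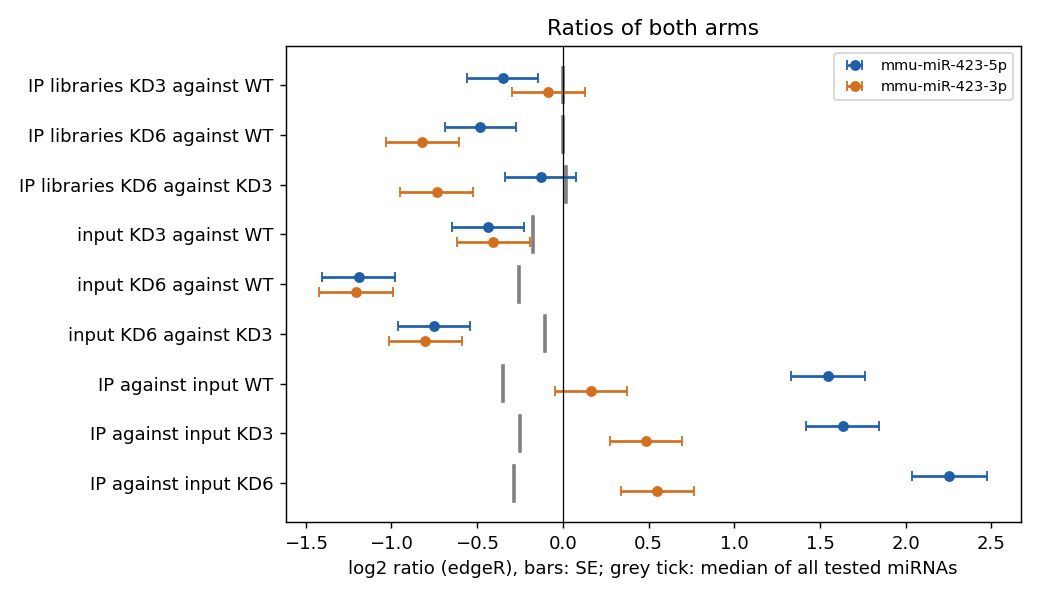
Log2 ratio of each arm (x axis, points with SE bars) in the 9 comparisons (y axis), with the median of all tested microRNAs as a grey tick. In the IP libraries of KD6 the 3p arm is at −0.82 against WT and the 5p arm at −0.48, while in the inputs the arms lie side by side at −1.21 and −1.19.

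The arms differed in how far the Ψ-IP raised them over input. In WT, miR-423-5p rose from a mean of 1148 ± 62.0 CPM in input to 3353 ± 276 in IP (SD, n = 3), a log2 ratio of 1.55 ± 0.21 (SE). miR-423-3p was at 1920 ± 121.5 CPM in input and 2151 ± 312 in IP, a log2 ratio of 0.16 ± 0.21. In KD3 the ratios were 1.63 ± 0.21 for the 5p arm and 0.48 ± 0.21 for the 3p arm, and in KD6 they were 2.26 ± 0.22 and 0.55 ± 0.21. The medians of all microRNAs were −0.35, −0.25 and −0.28, and the 5p arm ranked 87, 92 and 75 of 534 from the highest, the 3p arm 209, 194 and 198. All IP libraries of the 5p arm lay above its inputs in each condition, and those of the 3p arm in KD3 and KD6, where 31.3% and 31.6% of microRNAs did, and not in WT, where 28.8% did. These ratios were among the values that chose the arms. Without replicate A of the KD6 input the KD6 ratios were 1.83 ± 0.16 and 0.16 ± 0.18. Over all 534 microRNAs edgeR called 356 in WT, 358 in KD3 and 367 in KD6 in IP against input, while TMM assumes that most do not change. Under the 28 scalings the 5p ratio ran from 1.40 to 2.24 in WT and from 1.75 to 2.73 in KD6. The 3p ratio ran from 0.008 to 0.85 in WT and from 0.031 to 1.01 in KD6, a range that the SE does not include. All 28 were forms of TMM. With total mapped reads as library size, which is not among them, the 3p ratio in KD6 was negative.

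Between conditions the log2 IP ratio of the 5p arm differed by 0.09 ± 0.29 in KD3 against WT, 0.71 ± 0.30 in KD6 against WT and 0.62 ± 0.30 in KD6 against KD3, and that of the 3p arm by 0.32 ± 0.30, 0.39 ± 0.30 and 0.07 ± 0.30. The median microRNA moved by 0.14, 0.26 and 0.12 in the same comparisons. Without replicate A of the KD6 input the KD6 against WT values were 0.29 ± 0.21 for the 5p arm and 0.02 ± 0.24 for the 3p arm, beside a median of −0.02, and the KD6 against KD3 values were 0.39 ± 0.21 and −0.13 ± 0.24. Leaving out each of the 12 libraries in turn gave 0.29 to 0.65 for the 5p arm and −0.07 to 0.28 for the 3p arm in KD6 against WT, all below the values with every library, and the lowest for the 3p arm was without replicate C of the KD6 IP. With total mapped reads as library size both were below 0, at −0.12 and −0.42.

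The order of the arms does not depend on scaling, because both are read in one library. In the inputs the 3p arm had more reads in all 9 libraries, and in the IP libraries the 5p arm had more in all 9. The 5p share of miR-423 reads was 37.2%, 37.4% and 37.7% in WT input, 35.4%, 36.5% and 38.9% in KD3 input and 35.1%, 38.2% and 38.2% in KD6 input. It was 65.4%, 62.4% and 55.1% in WT IP, 57.5%, 59.0% and 53.2% in KD3 IP and 67.2%, 69.1% and 62.8% in KD6 IP. The 95% Wilson interval had a half-width of at most 0.994 points, except in the shallow replicate A of the KD6 input, where it ran from 28.8% to 41.7%. These intervals cover counting error only, since reads copied by PCR are not independent molecules. In all 3 conditions the replicate with the lowest share in IP was replicate C.

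**Figure D3:**
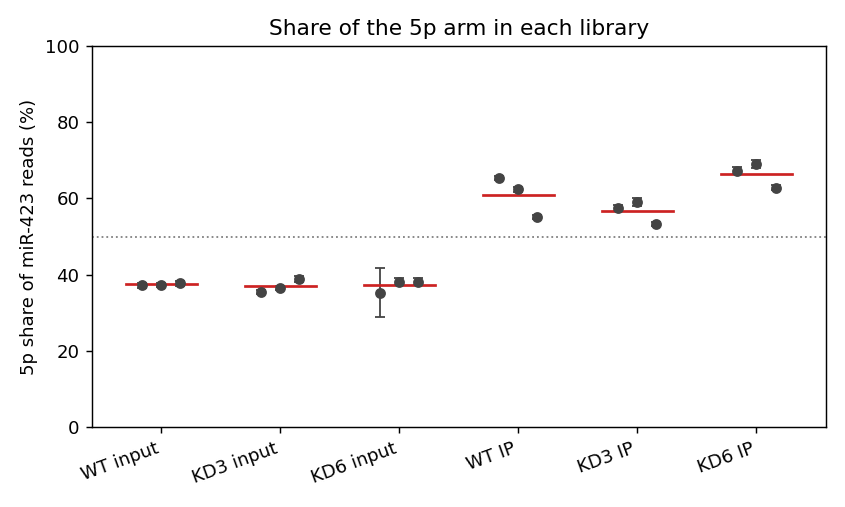
Share of the 5p arm in miR-423 reads (y axis, percent) in each library, by group (x axis); bars are 95% Wilson intervals, red lines the group means and the dotted line 50%. The 9 inputs lie below 50% and the 9 IP libraries above it.

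The mean share in input was 37.4% ± 0.238 in WT, 36.9% ± 1.81 in KD3 and 37.2% ± 1.75 in KD6 (SD, n = 3), and the conditions overlapped. The mean share in IP was 60.9% ± 5.29 in WT, 56.6% ± 3.02 in KD3 and 66.4% ± 3.23 in KD6. KD6 lay 9.77 points above KD3 without overlap. Among distinct sequences these libraries overlapped, with 47.5% in replicate B of the KD3 IP and 46.5% in replicate A of the KD6 IP. How many other hairpins separate in this way was not computed, so nothing is read from it. The difference was 5.41 points in KD6 against WT and −4.37 points in KD3 against WT, and in both the libraries overlapped. From input to IP the log2 ratio of 5p to 3p reads shifted by 1.39 in WT, 1.16 in KD3 and 1.74 in KD6, which are folds of 2.62, 2.23 and 3.34.

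The arms of the other hairpins that could be compared also differed in their IP ratio, by at least 0.482 in log2 over the mean of the 3 conditions. Of 19 hairpins with both arms at a mean of at least 100 CPM, 13 had the higher log2 IP ratio on the 3p arm and 6 on the 5p arm. The 13 include miR-199a and miR-199b, whose 3p arms were nearly alike in mean level (6157 and 6100 CPM) and mean log2 IP ratio (−0.58 and −0.59). They may not count as separate cases. Among the 6, miR-27a turned sign between conditions, at 1.25 in WT, 1.16 in KD3 and −0.31 in KD6. miR-423 was 8th by the size of this difference, at 1.41 beside a median size of 1.33, with miR-140 (2.70) and miR-411 (−1.46) just above and miR-322 (−1.36) and miR-151 (−1.33) just below. Only miR-382 (3.998) and miR-140 had a larger difference in favour of the 5p arm among these 19. The largest difference of all was 5.49, for miR-30e, in favour of its 3p arm.

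**Figure D4:**
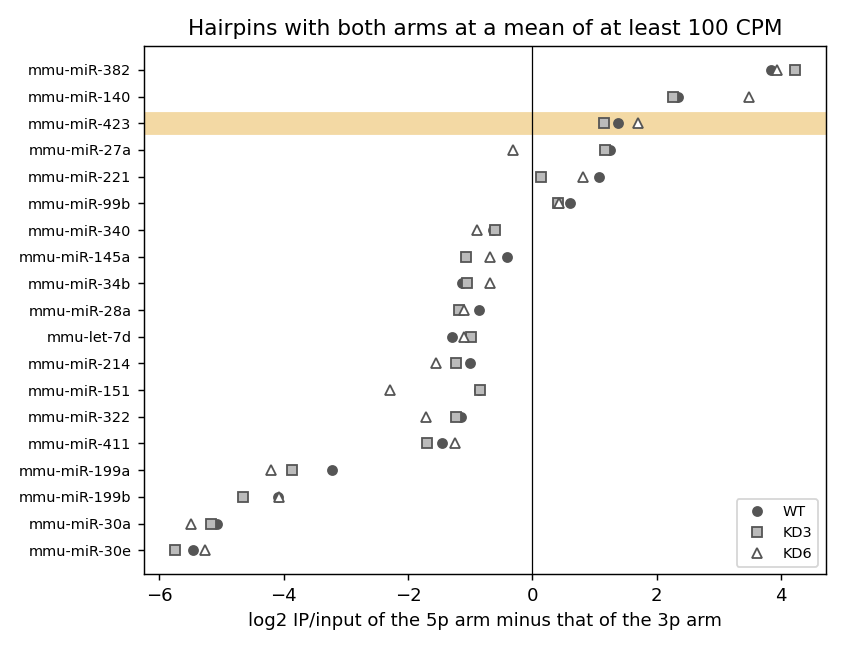
Log2 IP/input of the 5p arm minus that of the 3p arm (x axis) for 19 hairpins (y axis), in WT (filled circles), KD3 (grey squares) and KD6 (open triangles). miR-423, shaded, has all 3 values right of 0, at 1.38, 1.15 and 1.70.

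Both arms were also read as many distinct sequences, which count end variants and sequencing errors together and grow with depth. miR-423-5p had 247 to 265 distinct sequences in WT input and 267 to 317 in WT IP, and miR-423-3p had 454 to 479 and 250 to 372. Among distinct sequences the 5p share was 35.6% ± 0.376 in WT input and 48.0% ± 3.12 in WT IP. Reads per distinct sequence of the 5p arm were 40.6 ± 5.83 in WT input, 37.5 ± 5.71 in KD3 input and 23.0 ± 14.5 in KD6 input, and 56.9 ± 4.72, 41.7 ± 9.54 and 45.1 ± 7.56 in the IP libraries of WT, KD3 and KD6. For the 3p arm they were 37.5 ± 5.08, 33.0 ± 6.68 and 18.3 ± 12.003 in the inputs and 34.0 ± 7.06, 28.2 ± 9.18 and 23.5 ± 8.77 in the IP libraries. The lowest values, 6.30 and 4.49, were those of the shallow replicate A of the KD6 input. Without that library the log2 differences in KD6 against WT input went from −1.14 to −0.37 for the 5p arm and from −1.39 to −0.56 for the 3p arm.

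By the order of group means, the 5p arm was highest in WT IP, then KD3 IP, KD6 IP, WT input, KD3 input and KD6 input, and of these neighbours KD3 IP and KD6 IP overlapped. The 3p arm followed the order WT IP, KD3 IP, WT input, KD3 input, KD6 IP and KD6 input, where the neighbours overlapped except WT input against KD3 input and KD6 IP against KD6 input. Among 150 other microRNAs at a mean of at least 100 CPM, those whose 6 centred group means of log2 CPM were most like those of miR-423-5p were miR-183-5p, miR-501-3p and miR-320-3p, with root mean square differences of 0.23, 0.24 and 0.27 beside a median of 1.04. For miR-423-3p they were miR-30c-2-3p, miR-298-5p and miR-296-3p, with 0.19, 0.19 and 0.21 beside a median of 0.87. The arms themselves differed by 0.74, so that 51 microRNAs were more like the 5p arm than its own partner was.

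The 7 microRNAs often used as references, namely miR-16-5p, miR-24-3p, miR-93-5p, miR-103-3p, miR-191-5p, miR-425-5p and miR-484, were all tested. In input none passed in KD3 against WT, where 0% of microRNAs were lower and 0% higher (46 had an unadjusted p under 0.05 in edgeR, DESeq2 called 12, and edgeR on the 6 compared libraries alone called 74), or in KD6 against WT, where 4.68% were lower and 0.375% higher. Their log2 ratios in KD6 against WT input ran from −0.56 to 0.19 with a median of −0.34, beside −0.25 over all microRNAs. Of 18 alternatives, miR-24-3p and miR-93-5p passed under 2 each and miR-16-5p and miR-484 under 1 each in KD3 against WT input. None passed under any in KD6 against WT input. In KD6 against KD3 input, where 4.68% were lower and 1.31% higher, 1 of 7 was lower, miR-24-3p, by −0.65 ± 0.19 with an adjusted p of 0.0412 (edgeR, Benjamini-Hochberg). With the replicate letter as a block, which the reported fit leaves out, its adjusted p was 0.0511 (edgeR, Benjamini-Hochberg) and it did not pass. It passed under 2 of 18 alternatives, with log2 ratios of −0.79 to −0.18 and adjusted p of 0.0138 to 0.877 (edgeR or DESeq2, Benjamini-Hochberg). In the IP libraries none of 7 passed in any of the 3 comparisons, and their medians were −0.11 in KD3 against WT, −0.45 in KD6 against WT and −0.37 in KD6 against KD3. The lowest of them in KD6 against WT IP was miR-93-5p at −0.91 ± 0.32 with an adjusted p of 0.0589 (edgeR, Benjamini-Hochberg), which passed under 14 of 18 alternatives (adjusted p of 0.00178 to 0.163). There miR-484 passed under 5 of the 18, and miR-16-5p, miR-24-3p and miR-425-5p under 2 each. miR-103-3p and miR-191-5p passed under 1 each. In KD6 against KD3 IP miR-16-5p, miR-24-3p and miR-93-5p passed under 1 each, and in KD3 against WT IP none passed under any. The log2 ratio of miR-423-3p, −0.82, was within the range of these 7 in KD6 against WT IP, and at −0.74 it lay below all 7 in KD6 against KD3 IP, where they ran from −0.62 to −0.13.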

How the data were processed

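Small RNA-seq of 18 NIH/3T3 libraries was analysed. The authors mapped reads with the SeqImp pipeline to mm10, with Ensembl and miRBase annotation, and deposited estimated counts of mapped reads and of distinct read sequences per microRNA and precursor. Of the values above 0, 47.01% are not whole, because reads are split among precursors. The total of mapped reads was kept out of the tests. For 78 of 1907 microRNAs with several rows the one with most reads was kept.

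Estimated counts were rounded and fitted in edgeR 4.0.16 under R 4.3.3 (TMM, filterByExpr, glmQLFit, glmQLFTest) with 6 group means over 18 libraries, and p-values were adjusted by Benjamini-Hochberg over 534 microRNAs, with a threshold of 0.05. Standard errors were derived from the F statistic and the log2 ratio. The code was tested on simulated data.

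The arms, lists and tests were chosen with earlier results of these data known. Tests of the arms had been planned between IP libraries, for the 5p share and for reads per distinct sequence, and are not given, because these values are built from those that chose the arms. The edgeR default is reported. It is one of 28 scalings, varying library size, filter, TMM order and reference library, that were fitted and seen. All of them were forms of TMM, and 22 of them gave distinct values. Another of them, with all microRNA rows as library size and the deepest library as TMM reference, stood for a time as the reported fit; it was chosen with the values of both arms in view and was set back to the default. Named microRNAs are both arms, a reference list, the 3 most alike per arm and the hairpins next to miR-423 in the order of arm differences. Alternatives were RLE factors, library size alone, 2 filters, a replicate block and DESeq2 1.42.0. Further ones were the deepest library or the deepest IP library as TMM reference, and all microRNA rows or total mapped reads as library size. The compared libraries were also fitted alone, with and without a block, and each library was left out. Counts over 12 alternatives omit the fits with a library left out, and counts over 18 include them.

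Replicate letters were checked as pairs by the correlation of deviations over 197 microRNAs. Every pair was above 0.1 in KD3 against WT input (0.217 to 0.587) and KD6 against KD3 input (0.243 to 0.323). This is a hint of pairing from the data and not from the labels. The reported fit has no block and so did not use it, and fits with the letters as a block are alternatives. The lowest pair was 0.0780 in KD6 against WT input and −0.15 in the comparisons between IP libraries. In IP against input the lowest pair was −0.19 in WT, −0.11 in KD3 and −0.23 in KD6.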

Additional observations from a re-analysis of the deposited data

How the results depend on the processing

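miR-423-3p lay below WT and below KD3 in the KD6 IP libraries under each alternative run, with log2 ratios without single libraries of −0.99 to −0.75 and −0.86 to −0.57. Against WT it was −1.14 with library size without factors and −1.38 with total mapped reads as library size, and against KD3 −1.03 without factors. miR-423-5p in KD6 against WT IP was −0.83 without factors, −1.06 with total mapped reads, −0.32 with RLE factors and −0.32 in DESeq2, and without single libraries it ran from −0.63 to −0.41. In KD6 against KD3 IP it was −0.43 without factors, −0.34 with total mapped reads and, with its sign turned, 0.060 with all microRNA rows as library size. In KD3 against WT IP it was −0.71 with total mapped reads and −0.54 to −0.31 without single libraries, and miR-423-3p was −0.44 with total mapped reads and, with its sign turned, 0.026 without a filter.

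Counts of called microRNAs in the IP libraries of KD3 against WT, 2 as reported, were 9 with RLE factors, 1 with library size alone, 22 without a filter, 6 with a mean of at least 10 counts, 5 with the deepest library and 4 with the deepest IP library as reference, 7 with all microRNA rows, 26 with total mapped reads, 17 with the compared libraries alone, 24 with these and a replicate block, 34 in DESeq2 and 0 to 4 without single libraries. In KD6 against WT, 69 as reported, they were 133 with total mapped reads, 120 in DESeq2 and 46 to 111 without single libraries. In KD6 against KD3, 89 as reported, they were 59 with the compared libraries alone and 56 to 134 without single libraries. Over 12 alternatives the share of calls that were higher ran from 3.76% (total mapped reads) to 65.0% (DESeq2) in KD6 against WT IP, 47.8% as reported, with 64.6% for RLE factors and 10.5% without factors. It ran from 14.9% (without factors) to 66.0% (all microRNA rows) in KD6 against KD3 IP, 42.7% as reported, with 20.5% for total mapped reads. In the inputs it ran from 4.76% (replicate block) to 71.4% (no filter) in KD6 against WT, 7.41% as reported, with 53.8% without factors and 38.9% for the deepest library, and from 13.3% (deepest IP library) to 90.9% (total mapped reads) in KD6 against KD3, 21.9% as reported.

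With the replicate block, KD3 against WT IP had 0 calls in place of 2, and KD6 against KD3 input, where the letters correlated, had 29 in place of 32. The block left the log2 ratios of the arms there at −0.77 for miR-423-5p and −0.82 for miR-423-3p, and those in KD3 against WT input at −0.44 and −0.41.

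Some ratios moved by more than the combined SD of the compared libraries. In KD3 against WT input miR-423-5p was −0.30 with RLE factors, −0.24 without a filter, −0.30 with a mean of at least 10 counts, −0.30 with the deepest library and −0.27 with the deepest IP library as reference, −0.34 with all microRNA rows, −0.30 with the compared libraries alone, −0.29 with their block, −0.30 in DESeq2 and −0.38 to −0.27 without single libraries. miR-423-3p there was −0.21 without a filter, −0.23 with the deepest IP library as reference and −0.36 to −0.23 without single libraries. The IP ratio of miR-423-5p in WT was 1.88 with RLE factors, 1.81 with library size alone, 1.40 without a filter, 1.75 with a mean of at least 10 counts, 2.24 with all microRNA rows, 1.88 in DESeq2 and 1.46 to 2.23 without single libraries. That of miR-423-3p in WT was 0.50 with RLE factors, 0.42 with library size alone, 0.85 with all microRNA rows, 0.50 in DESeq2 and 0.13 to 0.83 without single libraries. In KD3 the 5p ratio was 1.90 with RLE factors, 1.83 with library size alone, 1.39 without a filter, 1.45 and 1.47 with the deepest library and the deepest IP library as reference, 2.09 with all microRNA rows, 1.31 with total mapped reads, 1.90 in DESeq2 and 1.37 to 2.14 without single libraries. The 3p ratio in KD3 was 0.75 with RLE factors, 0.94 with all microRNA rows, 0.15 with total mapped reads, 0.75 in DESeq2 and 0.18 to 1.04 without single libraries. In KD6 the ratios with total mapped reads were 1.43 for the 5p and −0.27 for the 3p arm, and without single libraries 1.83 to 2.92 and 0.095 to 1.17. Each fit without a library repeated the filter and the scaling, and the median of all microRNAs moved too. For IP against input in KD6 this median went from −0.28 to 0.36 without input replicate B and to −0.48 without input replicate A. In KD3 against WT input it went from −0.17 to between −0.08 and −0.03. Its part in the moves of the arms was not tested. Over distinct sequences the log2 shift of 5p to 3p from input to IP was 0.74 in WT, 0.76 in KD3 and 1.12 in KD6.

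The small differences of the 5p share in input turned sign: without single libraries they ran from −1.48 to 0.28 points in KD3 against WT, −0.77 to 0.75 in KD6 against WT and −0.54 to 1.24 in KD6 against KD3, where distinct sequences gave −2.38. Distinct sequences gave −4.09 points in KD6 against WT input and 3.50 in KD6 against KD3 IP, where the libraries overlapped. Log2 reads per distinct sequence of miR-423-5p ran from −0.21 to 0.014 in KD3 against WT input and from −0.028 to 0.30 in KD6 against KD3 IP without single libraries. The cause of these changes was not tested. The 28 scalings, all forms of TMM, were all seen before the reported one was settled on. Their KD6 against WT input values ran from −1.25 to −0.85 for the 5p arm and from −1.26 to −0.86 for the 3p arm. Depth limits replicate A of the KD6 input most.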
